A study of Mus musculus with 6 samples.

Results

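The genes described here make, carry, sense and break down retinoic acid, the active form of vitamin A. They are the 9 genes Stra6, Aldh1a2, Aldh1a3, Crabp1, Crabp2, Rara, Rarb, Rarg and Cyp26b1, and they were measured by every probe set whose platform annotation names exactly 1 gene and that gene is one of them. That gave 12 of the 45037 probe sets that are not array controls, 3 for Aldh1a3, 2 for Rarg and 1 for each other gene, and all 12 were bright enough to be tested. The arrays were hybridised with RNA of whole mouse kidneys at embryonic day 12.5. There were 3 arrays of Hoxb7-Cre,Gfp;beta-catenin deficient kidneys (knockout), in which Cre expressed from the Hoxb7 promoter meets a beta-catenin allele with loxP sites around exons 2 to 6, and 3 arrays of kidneys of normal mice, for which the labels name no allele. The Hoxb7 promoter acts in the ureteric bud, the epithelium that grows into the collecting ducts, so the mesenchyme and stroma of the knockout kidneys are not its target. The titles call the arrays biological replicates. Dissected kidneys were distributed at random over vials, and the number of animals per vial is not given. The p-values therefore set the group difference against the spread among these samples only, which may be technical in part.

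Retinol enters cells through membrane receptors such as Stra6, is oxidised to retinal and then, by retinaldehyde dehydrogenases such as Aldh1a2 and Aldh1a3, to retinoic acid. Crabp proteins bind the acid in the cytoplasm, Cyp26 enzymes break it down, and the nuclear receptors Rara, Rarb and Rarg, paired with an Rxr partner, switch target genes on when it is bound. In the mouse kidney Aldh1a2 is known from the stroma and Aldh1a3 from the ureteric bud. There, stromal receptors for retinoic acid are needed for the bud to keep expressing Ret, the receptor of the growth signal GDNF.

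Correlations of log2 signal between arrays, over the 27022 probe sets kept by a filter on dim signal, were 0.973 to 0.977 among knockout arrays, 0.961 to 0.971 among normal arrays and 0.951 to 0.974 between the groups. Of the markers of 3 kidney compartments, all 21 ureteric epithelium, 16 nephron progenitor and 17 stromal markers on the array passed the filter. So did 12464 of 18193 genes in all. The targeted gene was not lower in the knockout arrays. Its brightest probe set read 6777, 6779 and 6586 in knockout replicates 1 to 3 and 5707, 6760 and 6549 in normal replicates 1 to 3. The part of the transcript this probe set reads was not analysed here and whole kidneys hold many cells outside the bud, so this does not check the labels. The description field of the knockout samples repeats the wording for normal kidneys, against their titles and source names, and every direction below follows the titles. Skeletal muscle markers summed to 1922, 9354 and 983 signal units in knockout replicates 1 to 3 and to 881, 783 and 859 in normal replicates 1 to 3, highest in knockout replicates 1 and 2.

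No retinoic acid gene passed the test between knockout and normal kidneys. Aldh1a3, the retinoic acid synthesis enzyme of the bud, averaged lower in the knockout by 3 of 3 probe sets, and its brightest, at 0.619 times the normal level, had the smallest p of the 12. Aldh1a2, the stromal synthesis enzyme, differed little, at 0.959 times normal. Both binding proteins and Rarb averaged slightly higher in the knockout, and Rara, Rarg, Cyp26b1 and Stra6 averaged lower. With limma and a Benjamini-Hochberg correction across every kept probe set, 0 of 12 probe sets passed a threshold of 0.05 (smallest adjusted p = 0.252), against 0.581% of all probe sets tested. An unadjusted p under 0.05 was reached by 2 of 12, both lower, against 11.5% of all in either direction and 5.72% lower. That count was 1 without knockout replicate 1, knockout replicate 3 or normal replicate 1, and 3 without normal replicate 2. Of the 12, 9 were lower and 3 higher in the knockout, with a median log2 difference of -0.16, beside -0.01 over all kept probe sets, of which 51.9% were lower. The 9 lower include all 3 Aldh1a3 probe sets and both of Rarg, so they are not 9 separate genes. The knockout and normal arrays did not overlap for 3 of the 12, against 17.9% of all probe sets.

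**Figure D1:**
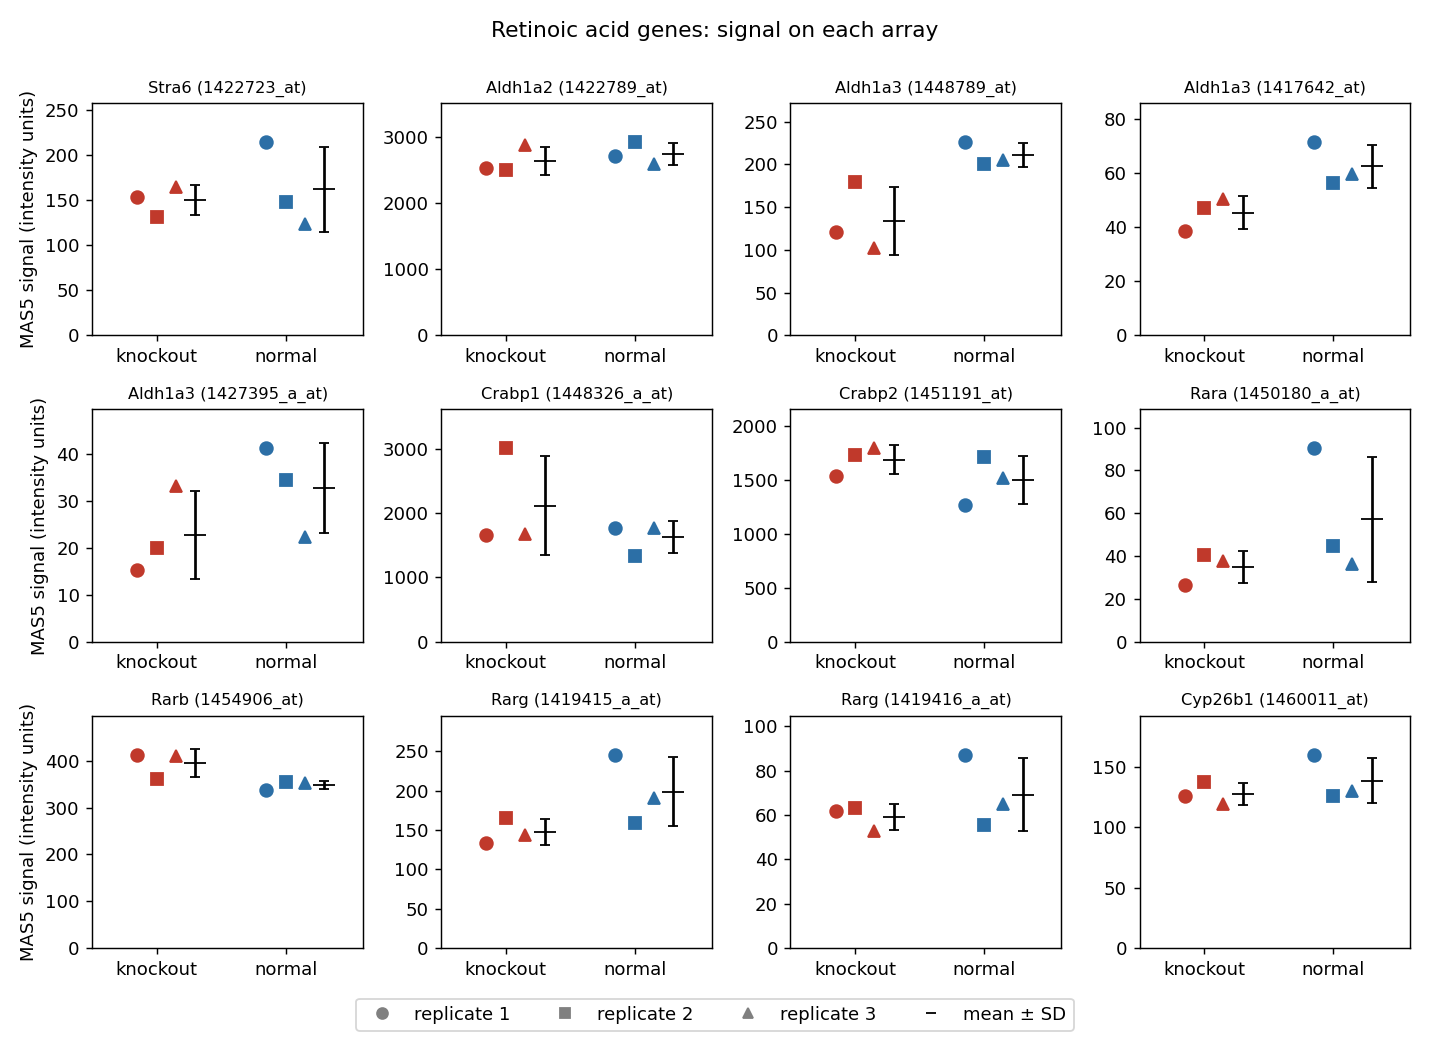
Signal of each of the 12 probe sets (linear MAS5 intensity, each axis from 0) on the 3 knockout arrays (red) and the 3 normal arrays (blue), with the marker shape giving the replicate number and black bars the mean ± SD of each group. The groups are apart for 2 Aldh1a3 probe sets and, narrowly, for Rarb. Normal replicate 1 (blue circle) is the highest array in 8 of the 12 panels.

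Stra6, a membrane receptor for the retinol-binding protein that lets retinol into cells, read 153, 132 and 165 on the knockout arrays and 215, 148 and 124 on the normal arrays. The groups overlapped, with the highest and the lowest value both on normal arrays. The log2 difference, knockout minus normal, was -0.08 (SE 0.20; limma adjusted p = 0.906). Its sign rested on single arrays: it was 0.14 without normal replicate 1 and 0.01 without knockout replicate 2.

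Aldh1a2, the retinaldehyde dehydrogenase that makes most of the retinoic acid of early embryos, was bright on all arrays. It read 2523, 2507 and 2879 on the knockout arrays and 2720, 2926 and 2597 on the normal arrays, and the groups overlapped. The means were 2636 ± 210 in knockout and 2748 ± 167 in normal kidneys (SD, n = 3 each), a log2 difference of -0.06 (SE 0.08; limma adjusted p = 0.814). This difference had the smallest limma SE of the 12, and its 95% interval ran from 0.84 to 1.09 times the normal level. With each array left out in turn the log2 difference stayed between -0.13 and -0.01.

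Aldh1a3, which carries out the same oxidation, was measured by 3 probe sets that all averaged lower in the knockout. The brightest, 1448789_at, read 120, 179 and 102 on the knockout arrays and 226, 200 and 205 on the normal arrays. Every knockout array lay below every normal array, and the normal arrays were close together. Its means were 134 ± 39.98 in knockout and 210 ± 13.98 in normal kidneys (SD, n = 3 each), with a log2 difference of -0.69 (SE 0.20). The limma unadjusted p was 0.00684 and the adjusted p 0.252, so the difference did not pass. The 95% interval of the ratio ran from 0.454 to 0.845 times the normal level.

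The second Aldh1a3 probe set, 1417642_at, read 38.6, 47.1 and 50.3 on the knockout arrays and 71.5, 56.3 and 59.7 on the normal arrays. The groups were again apart, and the log2 difference was -0.46 (SE 0.21; limma adjusted p = 0.439). The dimmest, 1427395_a_at, read 15.2, 19.9 and 33.3 on the knockout arrays and 41.3, 34.5 and 22.4 on the normal arrays. Here the groups overlapped, since knockout replicate 3 lay above normal replicate 3, and some values were near the filter signal of 14.7 (log2 difference -0.55, SE 0.38; limma adjusted p = 0.602). The probe sets disagreed on the order of the knockout arrays: knockout replicate 3 was the lowest by the brightest probe set and the highest of the knockout arrays by the others.

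With the mean of the 3 Aldh1a3 probe sets as 1 value, the log2 difference was -0.57 (limma adjusted p = 0.287). All 3 probe sets stayed lower in the knockout with each array left out in turn, between -0.92 and -0.52 for the brightest. Without knockout replicate 2, the knockout array with the highest brightest-probe-set signal, the log2 difference was -0.92 and the limma adjusted p 0.0923, the smallest that any retinoic acid gene reached under any alternative run. In RNA of a whole kidney, fewer cells of a type and less RNA per cell cannot be told apart. The 21 ureteric epithelium markers had a mean log2 signal, counted from the normal group's mean, of 0.03, -0.31 and -0.11 on the knockout arrays and 0.08, 0.08 and -0.16 on the normal arrays. Their summed signal was 4989 to 7284 in knockout and 5817 to 7009 in normal arrays. Of the 21 markers 15 were lower in the knockout, against 50.6% of all genes. An unadjusted limma p under 0.05 was reached by 3, all lower, against 5.57% of all genes lower and 11.7% in either direction. Knockout replicate 2 was lowest for these markers, while the lowest knockout array was replicate 3 for the brightest Aldh1a3 probe set and replicate 1 for the others. The part of bud content in the Aldh1a3 difference was not tested. Whether Aldh1a3 differed from Aldh1a2 in its response was not tested either.

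**Figure D2:**
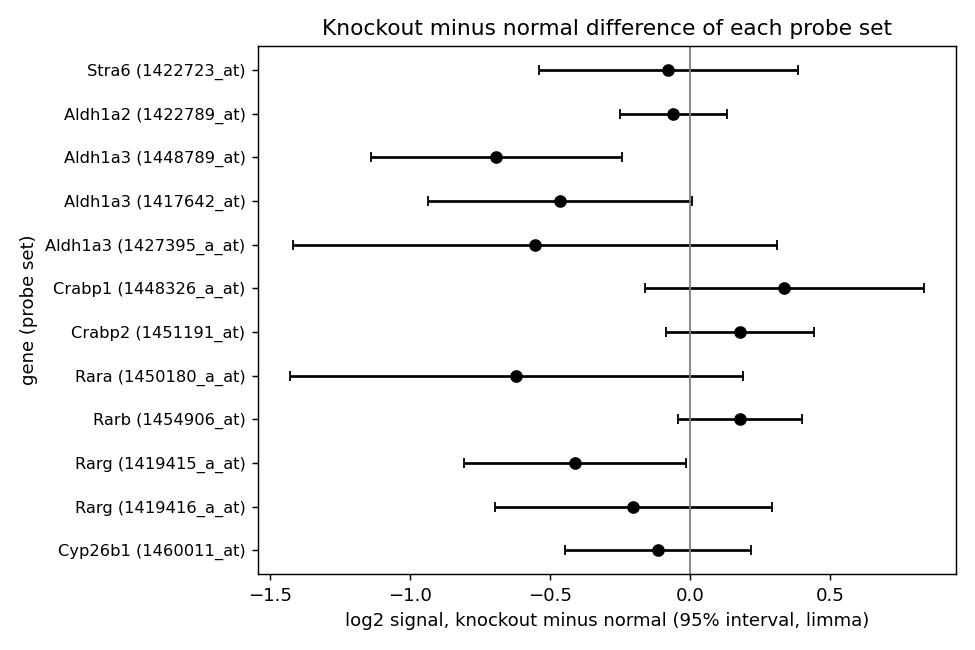
Log2 difference in signal, knockout minus normal, for each probe set, with its 95% interval from limma. Points left of 0 are lower in the knockout. The intervals of the brightest Aldh1a3 probe set and the brighter Rarg probe set exclude 0 before adjustment and neither passed after it.

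Crabp1 and Crabp2 bind retinoic acid in the cytoplasm. Crabp2 is known to hand it to the nuclear receptors. Crabp1 read 1660, 3006 and 1673 on the knockout arrays and 1765, 1335 and 1765 on the normal arrays. Only knockout replicate 2 lay above the normal arrays. The log2 difference was 0.33 (SE 0.22; limma adjusted p = 0.586) and was 0.05 without knockout replicate 2. That array also had the highest summed skeletal muscle and macrophage markers, 9354 and 1724 signal units, against at most 1922 and 1285 on any other array. By mean log2 signal it was also highest for stromal markers (0.29) and lowest for ureteric epithelium (-0.31) and nephron progenitor markers (-0.21). By summed signal, stromal markers were higher on normal replicate 1 (28620) than on knockout replicate 2 (27921). The part of any of these cell types in the Crabp1 signal was not tested.

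Crabp2 read 1535, 1733 and 1796 on the knockout arrays and 1272, 1709 and 1519 on the normal arrays. The groups overlapped, and the lowest value was that of normal replicate 1. The means were 1688 ± 136 in knockout and 1500 ± 219 in normal kidneys (SD, n = 3 each), a log2 difference of 0.18 (SE 0.12; limma adjusted p = 0.585), and 0.06 without normal replicate 1.

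Among the receptors, Rara, the most widely expressed of the 3, read 26.4, 40.3 and 37.9 on the knockout arrays and 90.4, 44.6 and 36.4 on the normal arrays. Its mean was set by 1 array: normal replicate 1 was more than double any other. The log2 difference was -0.62 (SE 0.36; limma adjusted p = 0.538), between those of the brightest Aldh1a3 probe set and the other two, with a wide 95% interval of -1.43 to 0.19. Without normal replicate 1 it was -0.23.

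Rarb is a receptor gene that retinoic acid itself switches on, through a repeat in its promoter, and its level is often read as a gauge of retinoic acid signalling. It read 413, 360 and 411 on the knockout arrays and 339, 354 and 353 on the normal arrays. Every knockout array was above every normal array, though knockout replicate 2 cleared normal replicate 2 by only a few units. The means were 395 ± 30.0 in knockout and 349 ± 8.85 in normal kidneys (SD, n = 3 each). The log2 difference was 0.18 (SE 0.10; limma adjusted p = 0.521), with a 95% interval from 0.970 to 1.32 times the normal level, and it lay between 0.14 and 0.24 with each array left out. Which of the Rarb transcripts this probe set reads was not analysed here.

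The repeat is shown because transcription of Rarb itself is known to follow retinoic acid. RefSeq promoter windows of assembly GRCm38.p6, from 250 bases before to 50 after a transcript start, were at hand for 7 of the 9 genes, 14 windows in all. They were searched on both strands for the receptor binding hexamer AGGTCA, for its variant AGTTCA, for the variant GGGTCA, for the further variant GGTTCA and for direct repeats of any pair of them with 1, 2 or 5 bases between. The Rarb window held a repeat with 5 bases between, on the strand of the gene, 53 bases before the start (chr14:16575513-16575529, minus strand). Such a repeat was in 1 of the 14 windows and in 0.0974% of 32851 windows of all genes. Repeats with 1 or 2 bases between were in 0 of the 14 windows, against 0.222% and 0.268% of all, and a single hexamer, those within repeats included, was in 5 of the 14, against 43.7% of all. A match to these letters describes the sequence and does not show binding. The 150 bases before the Rarb start, chr14:16575477-16575626 on the minus strand, read 5′ to 3′ with both hexamers of the repeat in capitals:
Rarb promoter: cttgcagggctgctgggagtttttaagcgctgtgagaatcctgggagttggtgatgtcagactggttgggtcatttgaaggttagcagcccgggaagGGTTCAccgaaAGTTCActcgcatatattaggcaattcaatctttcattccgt

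Rarg, the receptor best known from skin and cartilage, was measured by 2 probe sets, both lower on average in the knockout. The brighter, 1419415_a_at, read 134, 165 and 143 on the knockout arrays and 246, 159 and 191 on the normal arrays. The groups overlapped, with knockout replicate 2 above normal replicate 2. Its log2 difference of -0.41 (SE 0.17) had a limma unadjusted p of 0.0428 and an adjusted p of 0.424, and was -0.25 without normal replicate 1. The dimmer, 1419416_a_at, read 61.9, 63.3 and 52.6 on the knockout arrays and 87.3, 55.3 and 65.1 on the normal arrays. Its log2 difference was -0.20 (SE 0.22; limma adjusted p = 0.748) and -0.02 without normal replicate 1.

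Cyp26b1, the cytochrome P450 that breaks retinoic acid down, read 126, 137 and 120 on the knockout arrays and 160, 126 and 130 on the normal arrays. The groups overlapped, and normal replicate 1 was again the highest. The means were 127 ± 8.90 in knockout and 139 ± 18.8 in normal kidneys (SD, n = 3 each). The log2 difference was -0.12 (SE 0.15; limma adjusted p = 0.793), with a 95% interval from 0.734 to 1.16 times the normal level, and it was -0.01 without normal replicate 1.

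Several of the lower averages in the knockout moved toward 0 without normal replicate 1. That array gave the highest signal of the 6 for 8 of the 12 probe sets, namely all of Aldh1a3, Rara, Rarg, Stra6 and Cyp26b1, against 27.5% of all kept probe sets. Without it, 8 of 12 were lower in the knockout and the median log2 difference was -0.045, against -0.159 with all arrays. The median was -0.266 without normal replicate 2 and -0.245 without normal replicate 3. Normal replicate 1 also had the highest summed signal of the 6 arrays for several marker lists, and the lowest for erythroid markers (13555 signal units). Its stromal markers summed to 28620, against 27921 in knockout replicate 2, the next highest. The lists given next were also highest there. Gonad and adrenal cortex markers summed to 188, 219 and 179 in knockout replicates 1 to 3 and 549, 201 and 207 in normal replicates 1 to 3, with 5 to 8 of the 12 markers below the filter signal on each array. Chromaffin and neural markers summed to 2124, 1397 and 920 in knockout and 2641, 751 and 1038 in normal replicates 1 to 3. The 13 endothelial markers ranged from 2436 to 2660 in knockout and from 2202 to 3203 in normal arrays. Their part in the signal of the retinoic acid genes was not tested.

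**Figure D3:**
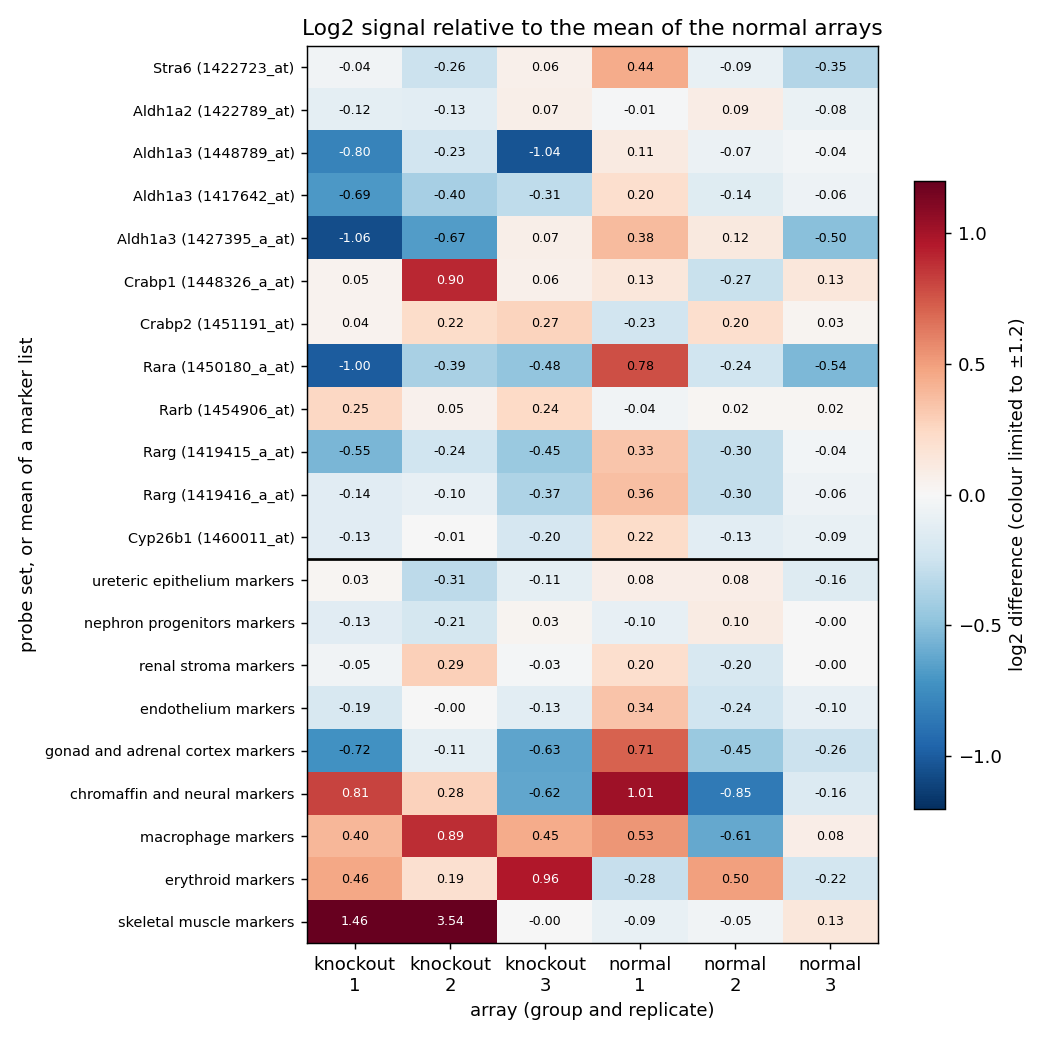
Log2 signal of each probe set (above the line) and mean log2 signal of each marker list (below it) on each array, counted from the mean of the 3 normal arrays, with knockout arrays on the left, the value printed in each cell and the colour limited to ±1.2. Normal replicate 1 is above the other normal arrays in most rows of retinoic acid genes and in gonad, adrenal, chromaffin and neural markers. Knockout replicate 2 stands out for Crabp1 (0.90) and muscle markers (3.54).

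**Figure D4:**
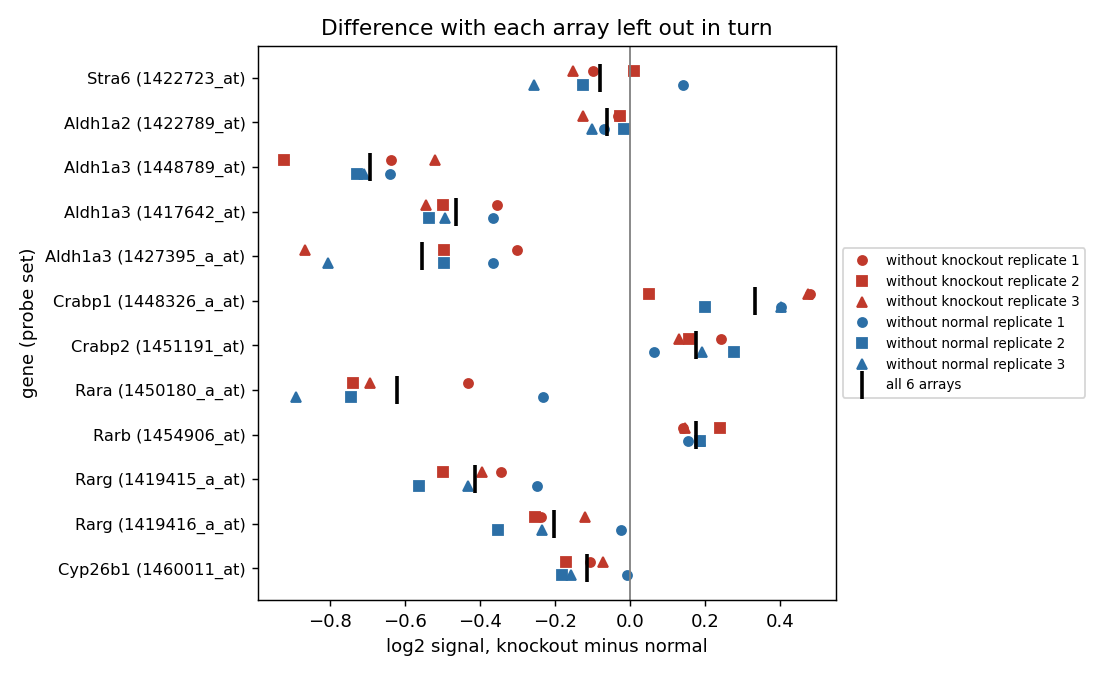
Log2 difference, knockout minus normal, of each probe set with all 6 arrays (black bar) and with each array left out in turn (red, a knockout array left out; blue, a normal array left out). All Aldh1a3 values stay between -0.92 and -0.30. Rara moves to -0.23 and Stra6 to 0.14 without normal replicate 1, and Crabp1 moves to 0.05 without knockout replicate 2.

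No other gene of retinoid handling and signalling passed either. The list named 40 genes, the Rxr partners, retinol and retinal dehydrogenases, other Aldh1a and Cyp26 enzymes, retinol-binding proteins and receptor cofactors, of which 35 were on the array and 26 passed the filter, each by its brightest probe set. By limma, 0 of the 26 passed the adjusted threshold in either direction, against 0.602% of all genes tested. An unadjusted p under 0.05 was reached by 2, both higher, against 11.7% of all genes in either direction and 6.14% higher. Of the 26, 16 were higher and 10 lower in the knockout, with a median log2 difference of 0.04, beside -0.0029 over all 12464 genes. Nr2f1, an orphan nuclear receptor that can occupy the same repeats as the retinoic acid receptors, read 1820, 1970 and 2402 on the knockout arrays and 1639, 1346 and 1656 on the normal arrays, which did not overlap (log2 difference 0.41, SE 0.12; limma adjusted p = 0.271). Fabp5, a fatty acid binding protein that also carries retinoic acid, read 4542, 4599 and 5182 on the knockout arrays and 3746, 4308 and 3923 on the normal arrays, again apart. Its log2 difference was 0.26 (SE 0.08; limma adjusted p = 0.320), and a second probe set gave 0.29. Nr2f2, a relative of Nr2f1, stood at -0.34 by its brightest probe set and between -0.07 and 0.32 by its 4 others. The cofactors Nrip1 and Ncoa1 stood at 0.34 (SE 0.19) and 0.28 (SE 0.16), the other probe set of Ncoa1 gave -0.06, and those of Nrip1 ran from -0.25 to 1.09. Among the receptor partners, Rxra differed by -0.18 (SE 0.18) and Rxrb by 0.00 (SE 0.10), and Cyp26a1 stood at 0.49 with an SE of 0.52. Rxra, Rxrb and Cyp26a1 were named after their values were seen, as was Ecm1 below.

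Genes whose level is known to follow retinoic acid in some tissue were counted in the same way. Of 25 listed, 21 were on the array and 18 passed the filter. By limma, 0 of the 18 passed the adjusted threshold in either direction, against 0.602% of all genes. An unadjusted p under 0.05 was reached by 4, 3 higher and 1 lower, against 6.14% of all genes higher and 5.57% lower. The median log2 difference was 0.09, with 11 higher and 7 lower, and was 0.146 without knockout replicate 1. The list shares Nr2f1, Nr2f2, Nrip1, Dhrs3 and Cyp26a1 with the one above. The homeobox genes Meis1 and Meis2, which are also stromal markers, read 970, 1172 and 1176 against 951, 826 and 904 (Meis1) and 2621, 2910 and 2853 against 1701, 2264 and 2587 (Meis2), knockout replicates 1 to 3 against normal replicates 1 to 3. Their log2 differences were 0.30 (SE 0.10; limma adjusted p = 0.331) and 0.38 (SE 0.14; limma adjusted p = 0.377). Both groups of arrays were apart, but their other probe sets ran from -0.35 to 0.36 (Meis1) and from -0.63 to 0.23 (Meis2). On the same scale as for the bud markers above, the stromal markers averaged -0.05, 0.29 and -0.03 on the knockout arrays and 0.20, -0.20 and -0.002 on the normal arrays. Nr2f1, Meis1 and Meis2, the 3 higher genes counted above, are themselves among these stromal markers, as is Nr2f2. Hoxb4, a homeobox gene of trunk patterning, was the lower one. It read 71.8, 59.3 and 64.6 on the knockout arrays and 112, 89.4 and 83.2 on the normal arrays, which were apart (log2 difference -0.53, SE 0.18; limma adjusted p = 0.342), and its other probe set gave -0.36. Foxc1 stood at 0.18 (SE 0.09).

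Ret, the bud receptor that depends on stromal retinoic acid signalling, had 2 probe sets that disagreed. The brighter read 227, 140 and 225 on the knockout arrays and 168, 231 and 203 on the normal arrays, a log2 difference of -0.05 (SE 0.21; limma adjusted p = 0.944). The dimmer read 36.7, 38.8 and 57.7 on the knockout arrays and 80.3, 74.2 and 62.7 on the normal arrays, which did not overlap (log2 difference -0.73, SE 0.23; limma adjusted p = 0.311). Ecm1, a bud-acting matrix protein made by the stroma under retinoic acid, read 317, 393 and 352 on the knockout arrays and 547, 308 and 295 on the normal arrays, with a log2 difference of -0.06 (SE 0.22; limma adjusted p = 0.939) and normal replicate 1 the highest again.

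**Figure D5:**
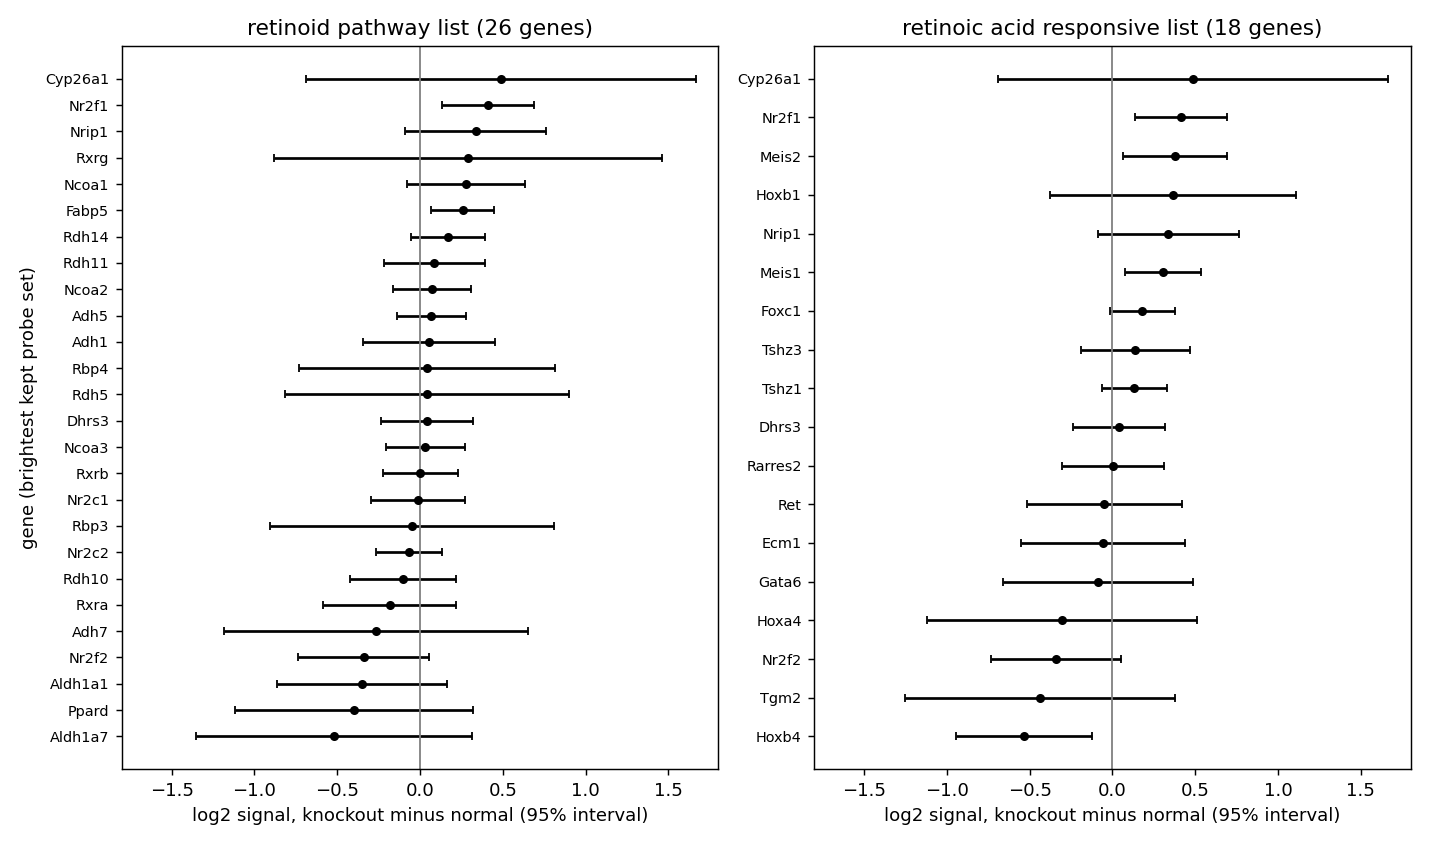
Log2 difference in signal, knockout minus normal, with its 95% interval from limma, for the 26 kept genes of the retinoid pathway list (left) and the 18 kept genes of the retinoic acid responsive list (right), each by its brightest probe set. Intervals that exclude 0 belong to Nr2f1 and Fabp5 on the left and to Nr2f1, Meis1, Meis2 and Hoxb4 on the right, and none passed after adjustment.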

How the data were processed

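The authors deposited 1 linear signal intensity per probe set and array, which per the submitters' processing notes came from MAS5. The MAS5 version is not given in the sources used here. The trimmed mean intensity (lowest and highest 2% of values left out) was 150.0 on every array, so no further scaling was done. Before taking log2, 1.7 (the 10th percentile of all values above 0) replaced the 15 values of 0. Probe sets with a mean log2 signal above the 40th percentile (a signal of 14.7) were kept. The groups were compared in R 4.3.3 by limma 3.58.1 (lmFit, eBayes with an intensity trend) and Benjamini-Hochberg adjustment over 27022 probe sets. The fit was tested on simulated data. Groups follow the sample titles. Gene names come from the platform annotation. All probe sets of the retinoic acid genes are named; from the retinoid lists, the 5 genes with the smallest p each, Ret and a few further genes. Members and lists were chosen with earlier results of these data known. Precision is limited by 3 arrays per group. Alternatives covered scaling, filter, pseudocount, variance trend, replicate number as a block, gene means and leaving out each array. MAS5 subtracts mismatch signal, which widens the scatter of dim probe sets on the log2 scale.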

Additional observations from a re-analysis of the deposited data

How the results depend on the processing

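None of the 12 retinoic acid probe sets, and no gene of the retinoid pathway or retinoic acid responsive list, passed the adjusted threshold under any alternative run by limma. The smallest adjusted p among the 12 lay between 0.0923 and 0.536 over these alternatives. All kept their direction except Stra6, which was higher in the knockout without knockout replicate 2 (0.01) and without normal replicate 1 (0.14), the lowest value with 1 array left out being -0.26. The count of all probe sets that passed was 157, was 41 without the intensity trend, and ran from 49 to 148 with 1 array left out (lowest without knockout replicate 3; 58, 63 and 95 without knockout replicates 1 and 2 and normal replicate 3). The pathway list's median of 0.04 ran from -0.013 to 0.045 with 1 array left out, and the responsive list's median of 0.09 from 0.065 to 0.146, and it was 0.041 with the filter at the 60th percentile and with none. Same-numbered knockout and normal arrays did not deviate together (correlations of 0.08, -0.11 and -0.20), so the numbers were not taken as pairs; with the replicate block 109 probe sets passed, none of them among the 12. Dim probe sets (Rara, the dimmest of Aldh1a3) scatter most. The causes of these shifts were not tested.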
